A study of Mus musculus with 24 samples.

Results

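The IgA heavy chains of mouse spleen were taken from 8 libraries of B cell receptor (BCR) transcripts. They were the entries whose V and J segments belong to the heavy chain locus, whose complementarity-determining region 3 (CDR3) reads through in amino acids without a stop or frame break, and whose constant region was called as alpha. These were 69328 of 583846 productive heavy chain entries and of 1154635 entries in all. Each library held between 7860 and 9729 of them. In the titled CT-26 libraries 1 to 4 they carried 32599, 36504, 38071 and 41381 reads, and in the titled control libraries 1 to 4 they carried 24161, 27786, 22321 and 30296 reads. The libraries titled CT-26 were thus read more deeply in IgA, and values that depend on depth were computed after thinning each library to 22321 IgA reads.

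The series set the spleen transcriptome and receptor repertoire of a CT-26 tumour model against those of normal spleen. CT-26 cells come from a colon carcinoma of a BALB/c mouse, and per the labels they were injected into the right side of specific-pathogen-free BALB/c mice 8 weeks old. Both groups are splenocytes of such mice, 4 libraries titled CT-26 and 4 titled control, each with RNA, T cell receptor and BCR sequencing. The treatment field contradicts the titles, since the libraries titled CT-26 carry a healthy control treatment and those titled control carry an injection of CT-26 cells. The 2 fields agree on which 4 libraries belong together but not on their treatment. The sets are therefore called by title, and nothing is read as tumour against healthy. The labels state neither that the replicates are separate animals nor how long after injection spleens were collected, so each p-value measures the spread between these libraries only.

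IgA is the antibody class that plasma cells secrete in bulk at mucosal surfaces. It is made when a B cell switches its constant region from mu to alpha, a step that in mice is promoted by transforming growth factor beta. Because switching keeps the rearranged V, D and J segments, cells of 1 clone that differ in class carry the same CDR3 nucleotide sequence, written CDR3nt below. In spleen, IgA cells are a minority beside the IgM cells of the follicles and the marginal zone.

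The largest IgA clonotype of each library, a clonotype being 1 CDR3nt with 1 V and 1 J segment, shows how differently the libraries were built. The sequences run 5′ to 3′ on the coding strand from the conserved cysteine codon to the tryptophan codon, both in capitals. All lie in the heavy chain locus on chromosome 12. The 4 titled control libraries had the same largest clonotype, so 5 sequences cover all 8 libraries.
titled CT-26 1: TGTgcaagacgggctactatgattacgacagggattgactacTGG
titled CT-26 2: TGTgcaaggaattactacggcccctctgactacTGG
titled CT-26 3: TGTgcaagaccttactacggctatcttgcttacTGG
titled CT-26 4: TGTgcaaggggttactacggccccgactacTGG
titled control 1 to 4: TGTgcaagacaggggctggactacTGG
The clonotype of titled CT-26 1 used IGHV5-9 with IGHJ2, those of titled CT-26 2 and 4 used IGHV4-1 with IGHJ2, and that of titled CT-26 3 used IGHV4-1 with IGHJ3. The shared clonotype of the titled control libraries used IGHV5-9-3 with IGHJ2. Its CDR3nt, of 27 bases, had 1299, 1116, 645 and 2013 IgA reads in titled control 1 to 4, against 3 reads in titled CT-26 3 and 0 in the other titled CT-26 libraries. In the other direction, the leading CDR3nt of titled CT-26 4 had 7291 IgA reads there, 21 in titled CT-26 2 and 1 in titled control 4. That of titled CT-26 1 had 2606 reads there and 16 in titled CT-26 3. That of titled CT-26 2 had 2499 reads there and 33 in titled CT-26 1, and that of titled CT-26 3 had 2163 reads there, 41 in titled CT-26 4 and 5 in titled CT-26 2. V calls split some of these CDR3nt. In titled CT-26 4 the clonotype under IGHV4-1 had 3850 of the 7291 reads, and in titled CT-26 2 another CDR3nt, shown with the motif below, had more reads than the one above once its V calls were joined (3454). Each titled CT-26 library was therefore led by a rearrangement that other libraries held in traces at most, while the titled control libraries were led by 1 rearrangement in common.

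This sharing ran through the titled control IgA repertoire. Counted in reads, between 55.9% and 66.3% of the IgA reads of a titled control library had a CDR3nt that another titled control library also held, with a median of 63.7% over 12 ordered pairs. Between titled CT-26 libraries this share was 0.650% to 22.6%, with a median of 7.43%. Titled CT-26 reads were found in titled control libraries at a median of 1.18%, and titled control reads in titled CT-26 libraries at a median of 1.86%. The highest value outside the titled control set, 22.6%, was that of titled CT-26 3 found in titled CT-26 4. Some others rested on few reads in the library searched, such as the 18.3% of titled CT-26 4 found in titled control 4, most of it the leading CDR3nt with its 1 read there. Of the 100 largest IgA CDR3nt of a titled control library, between 88 and 97 were in each other titled control library, against 0 to 17 between titled CT-26 libraries.

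At equal depth, a mean of 16.2% of CDR3nt was shared between titled control libraries (15.1% to 17.5%), against 1.03% between titled CT-26 libraries (0.621% to 1.73%) and 0.719% across the sets. Overlap within sets exceeded overlap across sets by a mean of 7.88 percentage points, the mean within sets being 8.60% (exact permutation test over the 35 splits into sets of 4, two-sided, p = 0.0286, adjusted p = 0.0367 over 9 values). Of 53320 IgA CDR3nt, 93.6% were in 1 library. All 4 titled CT-26 libraries shared 10, of which 0 were absent from the titled control set. All 4 titled control libraries shared 493, of which 452 were absent from the titled CT-26 set. The CDR3nt shared by all libraries of a set held 0.601%, 0.222%, 0.336% and 0.276% of the IgA reads of titled CT-26 1 to 4, against 56.2%, 54.9%, 48.1% and 54.0% in titled control 1 to 4. The other classes showed the same split, as 12 to 61 of the 100 largest IgM CDR3nt were shared between titled CT-26 libraries and 99 to 100 between titled control libraries.

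**Figure D1:**
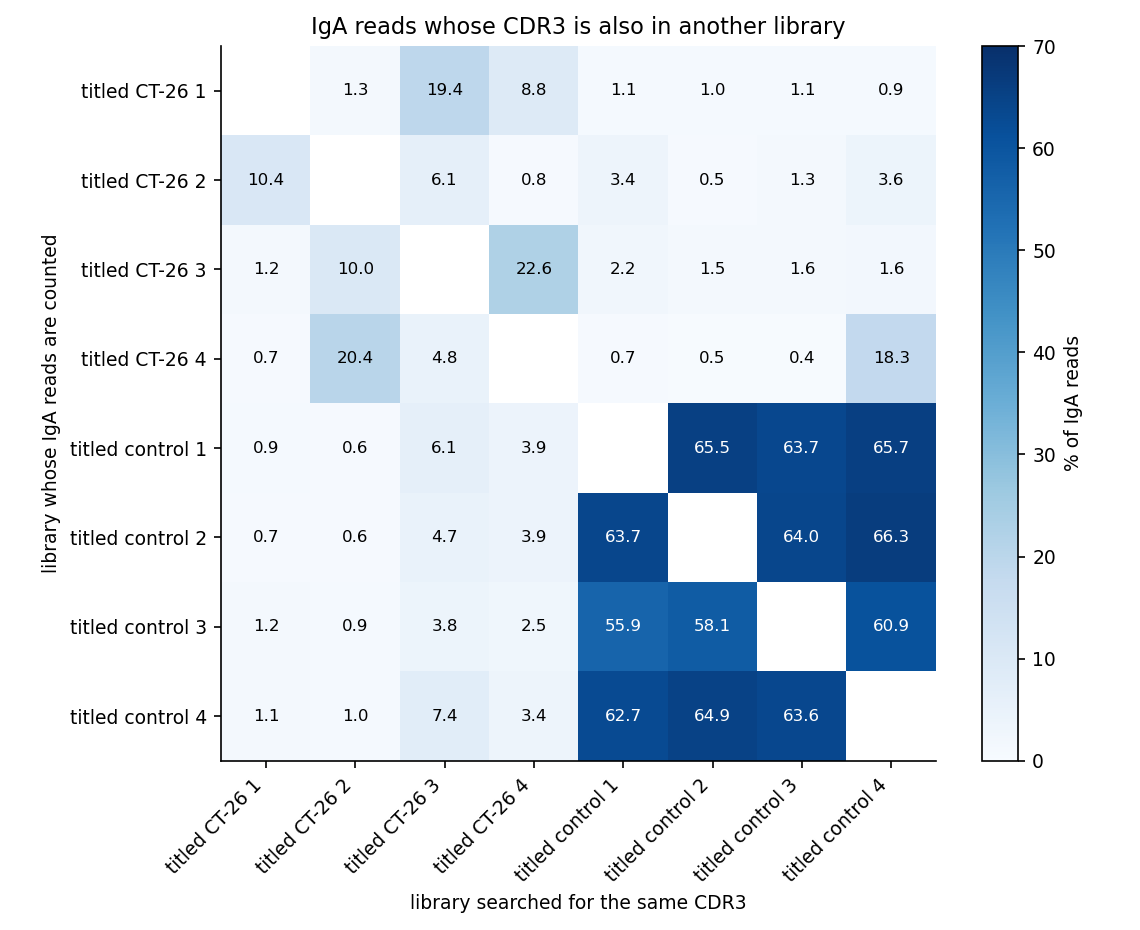
Each cell gives the percent of the IgA reads of the library in its row whose CDR3nt was also found in the library of its column, without thinning. The block of titled control pairs lies between 55.9% and 66.3%, and all other cells lie at or below 22.6%.

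The titled control libraries differed from one another by more than counting error. Over CDR3nt of at least 20 reads, the chi-square per degree of freedom of a pair was 17.4 to 22.6 within the titled control set, against 115 to 132 within the titled CT-26 set. Reads without molecular identifiers are not independent molecules, so these values do not tell separate samples from repeat libraries of 1 sample. The titled control libraries were kept as 4 samples, as labelled, but they may not be independent. For calls other than the overlap, values or numbers of calls are also given with these 4 averaged into 1 sample, an alternative chosen after seeing the data. An exact permutation test of 4 libraries against 1 then cannot give a p below 0.2.

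A few sequences were found everywhere. The CDR3nt in all 8 libraries were 6, and the one with the most IgA reads was carried mostly by IgM.
in all 8 libraries: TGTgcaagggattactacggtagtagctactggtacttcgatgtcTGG
in all titled control libraries only: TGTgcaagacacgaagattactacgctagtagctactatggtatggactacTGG
in titled CT-26 3 and 4 only: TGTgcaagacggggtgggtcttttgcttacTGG
The first had 100, 7, 30 and 16 IgA reads in titled CT-26 1 to 4 and 28, 9, 65 and 27 in titled control 1 to 4. Its IgM reads were 473 to 1745 in titled CT-26 libraries and 561 to 786 in titled control libraries. The second, the largest of the 452 CDR3nt confined to the titled control set, had 584, 985, 251 and 695 IgA reads there. The last of these had 1343 IgA reads in titled CT-26 3 and 1202 in titled CT-26 4, which was the largest IgA CDR3nt that 2 titled CT-26 libraries held in strength.

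The share of IgA among heavy chain reads was level between the sets. Of reads with a constant region call, IgA took 11.6%, 14.0%, 14.4% and 14.5% in titled CT-26 1 to 4 and 11.8%, 14.1%, 14.0% and 14.7% in titled control 1 to 4, so the sets overlapped throughout. The Wilson 95% intervals of the lowest library in each set were 11.5% to 11.8% for titled CT-26 1 and 11.7% to 11.98% for titled control 1, and intervals cover counting error only. The means were 13.6% ± 1.34 and 13.7% ± 1.26 (SD, n = 4 each), a difference of -0.04 percentage points (exact permutation test over 70 assignments, two-sided, p = 0.943, which is also its adjusted value). The classes beside it were not level. IgG took 17.97% to 29.9% in titled CT-26 libraries and 5.78% to 7.14% in titled control libraries, IgM took 54.5% to 66.5% and 73.6% to 75.0%, and IgD took 0.262% to 0.349% and 4.62% to 5.98%.

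Within that level share, the titled CT-26 IgA repertoires, like the IgM repertoires compared further below, held fewer and larger clones. At 22321 reads they had 6426, 5353, 5777 and 5495 clonotypes in titled CT-26 1 to 4, against 7294, 7239, 7842 and 7501 in titled control 1 to 4. The lowest titled control library was above the highest titled CT-26 library. The means were 5763 ± 476 and 7469 ± 273 (SD, n = 4 each), and the exact permutation test gave p = 0.0286, the smallest that 70 assignments allow, and an adjusted p of 0.0367. Without clonotypes of 1 read, left out before thinning to the lower equal depth that remained, the difference was -91.05 clonotypes with an adjusted p of 0.354 by the same exact permutation test, which no longer passes. Clonotypes of 1 read made up 77.5% to 79.8% of all IgA clonotypes in the 8 libraries. Reads were counted without molecular identifiers as far as the files show, and the part of sequencing errors among these clonotypes was not tested.

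Clonality is 1 minus the normalised Shannon entropy, at 0 when all clonotypes are equally large and near 1 when a single one dominates. It was 0.221, 0.267, 0.237 and 0.261 in titled CT-26 1 to 4 and 0.186, 0.182, 0.140 and 0.180 in titled control 1 to 4. The sets did not overlap (0.247 ± 0.0215 against 0.172 ± 0.0213, SD, n = 4 each, exact permutation p = 0.0286, adjusted p = 0.0367). The 10 largest clonotypes held 21.4%, 31.3%, 22.4% and 28.1% of IgA reads in titled CT-26 1 to 4, against 18.004%, 17.2%, 10.03% and 17.3% in titled control 1 to 4, again without overlap (25.8% ± 4.70 against 15.6% ± 3.75, SD, n = 4 each, exact permutation p = 0.0286, adjusted p = 0.0367). That call was lost without titled control 3, with a difference of 8.33 points and an adjusted p of 0.0735 in the exact permutation test. The largest clonotype alone held 7.01%, 6.60%, 5.45% and 9.30% in titled CT-26 1 to 4 and 4.54%, 3.61%, 2.47% and 6.15% in titled control 1 to 4. These sets overlapped through titled control 4, and the difference of 2.90 points did not pass (exact permutation p = 0.0571, adjusted p = 0.0643). With the titled control libraries averaged, each of these calls was lost, as the design could no longer pass.

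Clonotypes of at least 100 reads numbered 46, 49, 50 and 56 in titled CT-26 1 to 4, where they held 40.6%, 49.9%, 45.4% and 48.2% of IgA reads. In titled control 1 to 4 they numbered 27, 30, 16 and 28 and held 26.9%, 27.2%, 12.9% and 26.2%. These counts are not thinned. The clonotypes needed to hold 50% of IgA reads were 94, 50, 70 and 64 in titled CT-26 1 to 4, against 177, 183, 326 and 211 in titled control 1 to 4. Titled control 3 was the most even IgA library by each of these measures and also the one with the fewest reads.

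**Figure D2:**
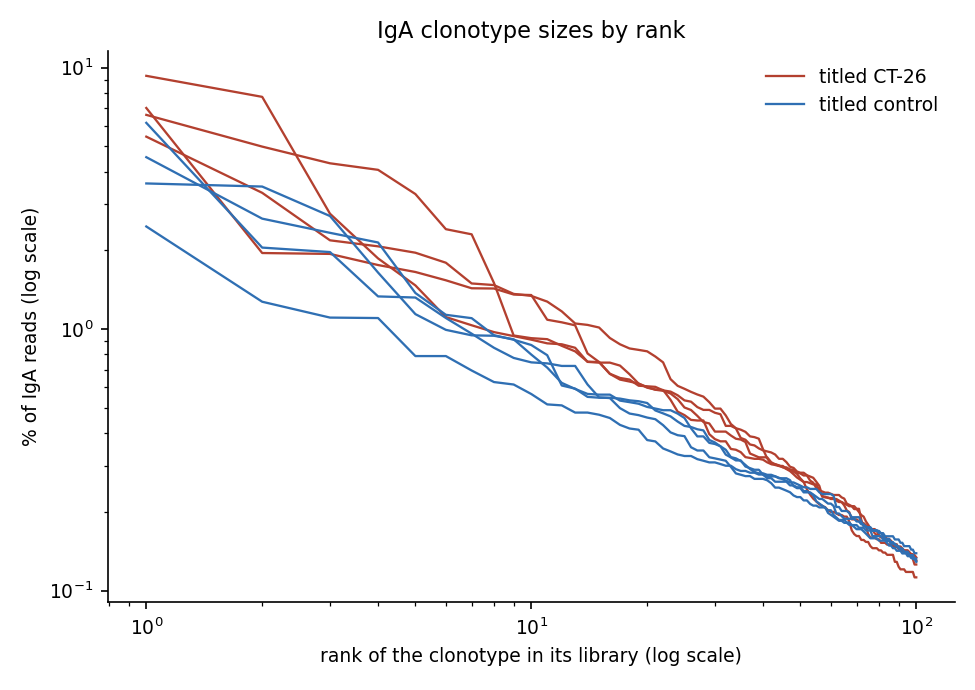
Each line is 1 library and gives the percent of its IgA reads in each of its 100 largest clonotypes, by rank, with both axes on a log scale. The largest clonotypes start at 5.45% to 9.30% in titled CT-26 libraries and at 2.47% to 6.15% in titled control libraries, and the lines meet towards rank 100.

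Set against the other classes of the same library, IgA was more uneven than IgM. With all classes thinned to 9224 reads, clonality was 0.173 ± 0.0428 in IgA and 0.101 ± 0.0163 in IgM (SD, n = 8 libraries), and IgA was higher in 8 of 8 libraries by 0.0303 to 0.126. The exact sign-flip permutation test over all sign patterns gave p = 0.0078, the smallest it allows, and an adjusted p of 0.0312 over 4 comparisons. Without any 1 library the adjusted p was 0.0625, the smallest that 7 libraries allow, and with the titled control libraries averaged the adjusted p was 0.25. IgM also differed between the sets at this depth, which was not tested. Its clonality was 0.0982 to 0.124 in titled CT-26 libraries and 0.0763 to 0.0978 in titled control libraries, a narrow gap. Its clones numbered 4460 to 4665 in titled CT-26 libraries and 5438 to 5891 in titled control libraries. In IgG the sets overlapped in both values. Against IgG, whose clonality averaged 0.225 ± 0.0204, IgA was lower in 6 of 8 libraries, by a mean of 0.0520 that did not pass (exact sign-flip permutation p = 0.0547, adjusted p = 0.109). IgA and IgG averaged 0.209 ± 0.0212 and 0.215 ± 0.0147 in titled CT-26 libraries, where IgA was higher in titled CT-26 2 and 4, and 0.138 ± 0.0208 and 0.236 ± 0.0213 in titled control libraries, where IgA was lower in all 4 (SD, n = 4 each). That split was not tested.

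**Figure D3:**
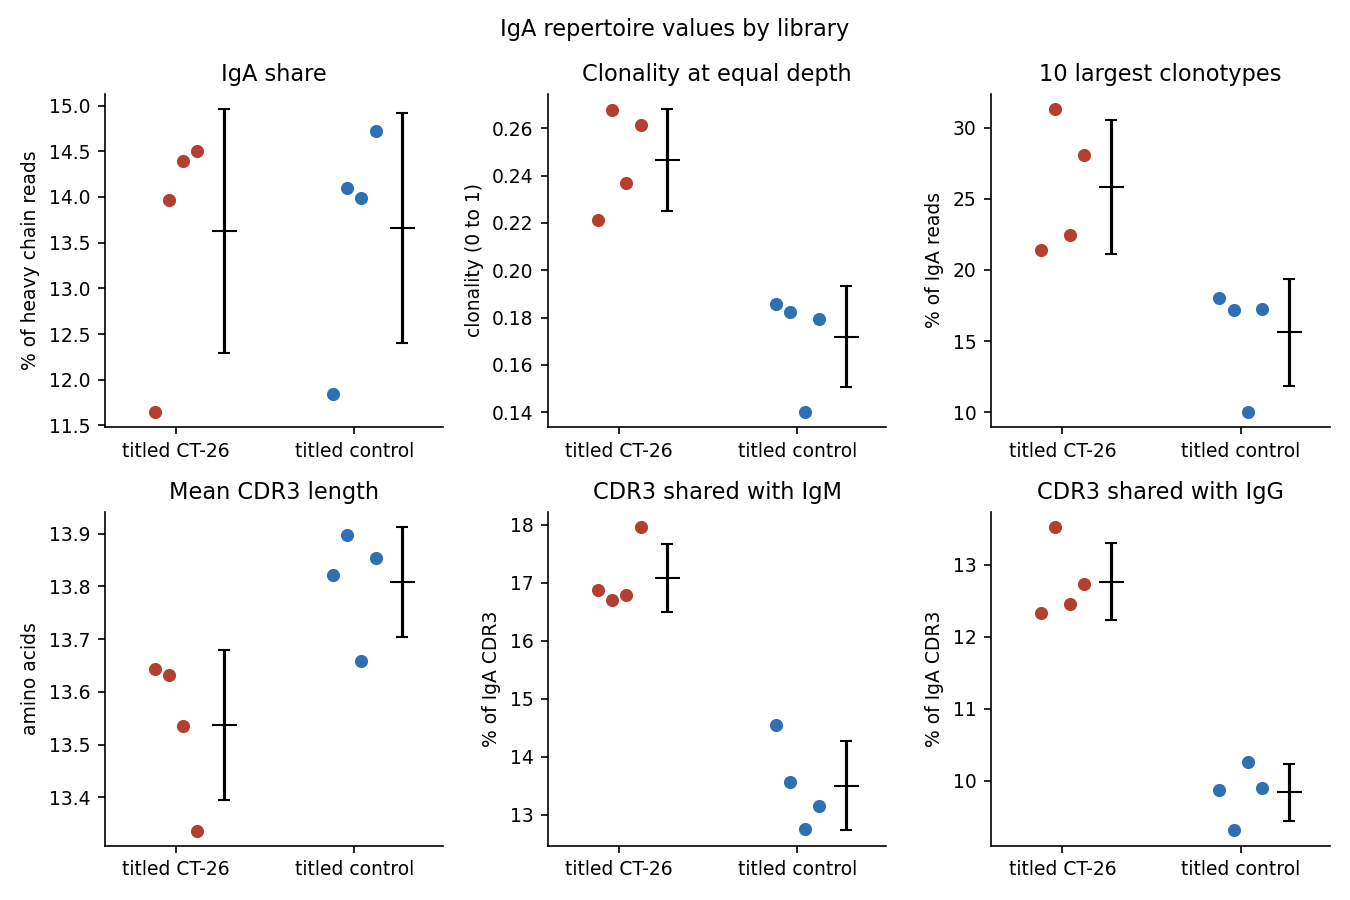
Each point is 1 BCR library, with the mean and SD of each set of 4 beside the points, and the vertical axes do not start at 0. The sets overlap in IgA share and do not overlap in clonality, the share of the 10 largest clonotypes, mean CDR3 length and, with classes thinned, the share of IgA CDR3nt also found in IgM or IgG.

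The V segment encodes most of the variable domain, and the segments of IgA differed between the sets. Names are those of the deposited calls, which are uncertain. Only 311 of 69328 IgA entries were marked full length, and CDR3nt listed under more than 1 V segment held 56.9% to 74.4% of a library's IgA reads. Among CDR3nt of at least 100 reads, those under several V families were 39 of 49, 41 of 51, 39 of 53 and 46 of 63 in titled CT-26 1 to 4, and 19 of 28, 23 of 35, 11 of 21 and 28 of 36 in titled control 1 to 4. Usage was counted in clonotypes, which limits the weight of large clones but does not settle V calls. A CDR3nt listed under several V segments counted once under each of them. Usage was tested with edgeR's quasi-likelihood test over the 96 segments that averaged 5 or more clonotypes a library. With each CDR3nt placed under its most-read V segment only, edgeR called 1 of 91 segments higher and 21 lower in titled CT-26 libraries.

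IGHV4-1, a segment of the small IGHV4 family, was the most used IgA segment and the only one called higher in titled CT-26 libraries. It took 22.6%, 22.99%, 20.1% and 25.5% of IgA clonotypes in titled CT-26 1 to 4, against 9.06%, 11.7%, 6.43% and 8.07% in titled control 1 to 4. Every titled CT-26 library stood above every titled control library. The means were 22.8% ± 2.24 and 8.82% ± 2.23 (SD, n = 4 each), the log2 fold change was 1.37 ± 0.20 (SE), and the edgeR adjusted p was 0.000725. Counted in reads, it took 33.3% ± 4.34 and 10.9% ± 3.13. The call held under all 17 alternatives, with log2 fold changes between 1.04 and 2.15, and the largest adjusted p was 0.0374, with the titled control libraries averaged. IGHV4-1 was also more used in the other classes of titled CT-26 libraries, at 23.9% ± 1.93 and 14.5% ± 2.52 of IgM clonotypes and at 22.9% ± 5.64 and 14.97% ± 3.39 of IgG clonotypes, in titled CT-26 and titled control libraries (SD, n = 4 each; not tested).

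Called higher was thus 1 segment of 96, or 1.04%, and called lower were 20, or 20.8%. Of these 20, 13 were among the 42 tested segments of IGHV1, the largest mouse family, and 2 each came from IGHV2, IGHV9 and IGHV10. The other one was IGHV14-1. In IGHV5, the family near the D segments, 0 of 19 were called in either direction, and 1 higher and 2 lower had an unadjusted edgeR p under 0.05. The IGHV1 family as a whole took 15.3% ± 2.79 of IgA clonotypes in titled CT-26 libraries and 30.8% ± 4.33 in titled control libraries (SD, n = 4 each), with ranges of 11.6% to 17.8% and 28.2% to 37.2%. The other classes went the same way, so a lower IGHV1 share was not particular to IgA. IGHV1 took 10.8% ± 0.620 and 16.1% ± 3.32 of IgM clonotypes, and 13.2% ± 1.31 and 18.8% ± 5.86 of IgG clonotypes (not tested). IGHV5 took 52.9% ± 5.46 and 45.5% ± 7.22 of IgA clonotypes. The balance of calls depends on scaling. The median log2 fold change over the 96 segments was -0.85. Scaled by TMM, which moved all values up by a median of 0.73, 6 segments were called higher and 4 lower, and by DESeq2, which moved them up by 0.85, 10 were called higher and 4 lower. With the titled control libraries averaged, edgeR called 1 higher and 1 lower.

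The 4 that stayed lower under both scalings were IGHV1S135, IGHV1S41, IGHV14-1 and IGHV1-84. IGHV1S135 had 1, 1, 1 and 0 IgA clonotypes in titled CT-26 1 to 4 and 28, 13, 47 and 31 in titled control 1 to 4 (log2 fold change -5.13 ± 0.73 SE, edgeR adjusted p = 0.000725). It was also the segment still called lower with the titled control libraries averaged (edgeR adjusted p = 0.0457). IGHV1S41 had 0, 2, 0 and 3 clonotypes in titled CT-26 1 to 4 and 19, 40, 26 and 39 in titled control 1 to 4 (-4.50 ± 0.78, edgeR adjusted p = 0.00244). Both segments were thus close to absent from titled CT-26 IgA. IGHV14-1 took 0.393% ± 0.0875 and 1.53% ± 0.525 of IgA clonotypes in titled CT-26 and titled control libraries, and IGHV1-84 took 0.119% ± 0.0351 and 0.545% ± 0.173 (SD, n = 4 each). Among the 10 most used segments, IGHV1-14 and IGHV1-62-2 were called lower by edgeR without scaling only, with log2 fold changes of -0.92 and -1.06. IGHV5-9-3, which carries the leading titled control clone, took 3.52% ± 1.33 and 4.23% ± 0.433 of clonotypes (log2 fold change -0.27, edgeR adjusted p = 0.485, and 0.48 under TMM).

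**Figure D4:**
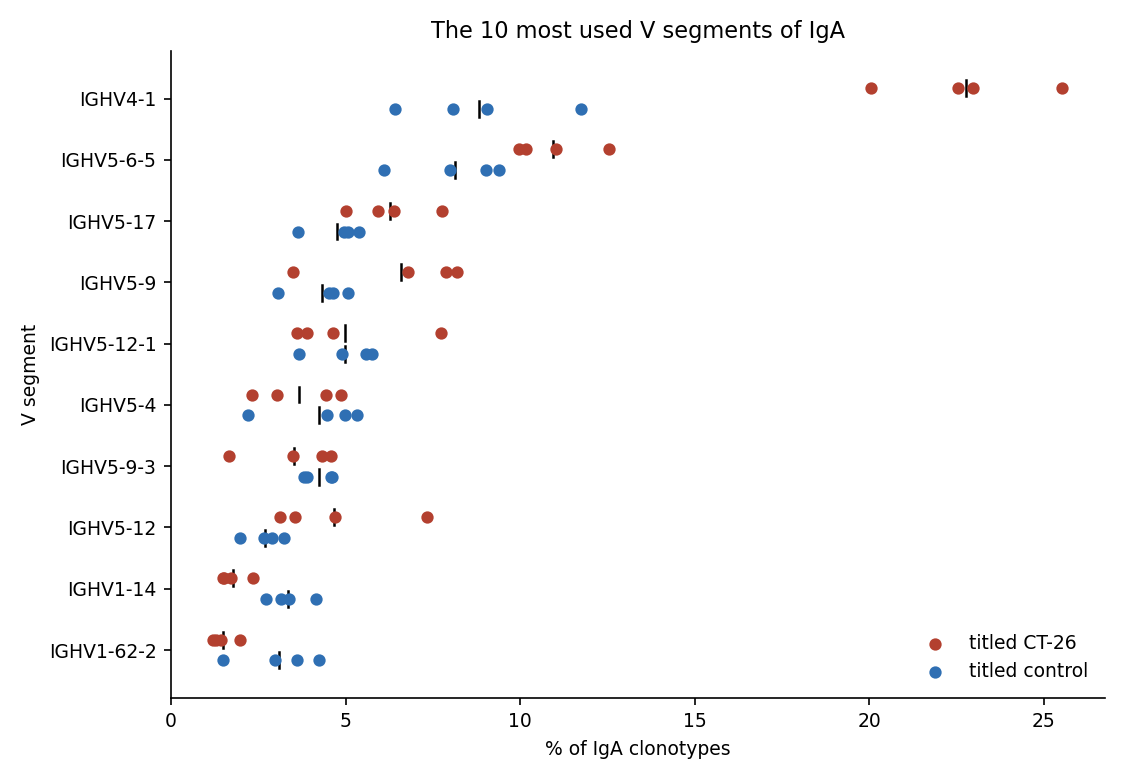
Points give the percent of IgA clonotypes in each of 8 libraries for the 10 V segments with the highest mean, with the mean of each set as a black bar. For IGHV4-1 the titled CT-26 libraries lie between 20.1% and 25.5% and the titled control libraries between 6.43% and 11.7%.

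Within libraries, IgA used IGHV1 segments more than IgM did. With the library as a block, edgeR called 36 of 133 segments higher in IgA, or 27.1%, and 25 lower, or 18.8%. Of the 63 IGHV1 segments tested, 28 were higher and 6 lower, with a median log2 fold change of 0.83 against 0.09 over all 133. Scaled by TMM, 27 segments were called higher and 37 lower, and by DESeq2 27 and 33. IGHV1-50 took 2.12% ± 1.05 of IgA clonotypes and 0.672% ± 0.25 of IgM clonotypes (SD, n = 8), and was higher in IgA in 8 of 8 libraries (log2 fold change 1.58 ± 0.14 SE, edgeR adjusted p = 9.6e-07). IGHV1-76, IGHV1-53, IGHV1-43 and IGHV1-19 were also higher in 8 of 8, with log2 fold changes of 1.38, 3.16, 3.14 and 2.36. Each of these 5 calls held under TMM, under DESeq2 and with the titled control libraries averaged.

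Of the 25 lower segments, 6 came from IGHV1 and 3 each from IGHV2 and IGHV10, and no other family gave more than 2. IGHV4-2, the close relative of IGHV4-1, took 1.67% ± 0.707 of IgA clonotypes and 4.04% ± 1.49 of IgM clonotypes (SD, n = 8) and was lower in IgA in 8 of 8 libraries (log2 fold change -1.29 ± 0.12 SE, edgeR adjusted p = 1.2e-06). IGHV10S3, IGHV10-1 and IGHV7-3 were lower in 8 of 8, with -1.11, -1.08 and -1.01. IGHV4-1 itself had -0.40 with an edgeR adjusted p of 0.0262, but it was higher in IgA in 2 titled CT-26 libraries. That call was lost without any 1 titled control library (adjusted p between 0.0596 and 0.0802), with the titled control libraries averaged (0.397), without clonotypes of 1 read (0.414) and with CDR3nt joined at 1 mismatch (0.602), all in edgeR.

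Against IgG, 5 of 98 segments were called higher in IgA, or 5.1%, and 3 lower, or 3.06%. Higher were IGHV1-62-2, IGHV1-84, IGHV1-76, IGHV9-2 and IGHV1-39, with log2 fold changes of 1.17, 1.21, 0.72, 0.70 and 1.51, and lower were IGHV4-2, IGHV5-6-3 and IGHV2-6-1, with -2.20, -1.17 and -1.56. The edgeR adjusted p of IGHV4-2 was 0.00105, and IgA used it less than IgG in 8 of 8 libraries. Only IGHV1-62-2 of the higher segments was still called under TMM and under DESeq2. Without titled CT-26 3, 15 segments were called higher, and with the titled control libraries averaged, edgeR called 0 in either direction (6 higher and 3 lower at an unadjusted p under 0.05).

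Segments known from B-1 cells, the innate-like B cells that make natural antibodies in mice, took small shares of IgA. IGHV11-1, IGHV11-2, IGHV12-3 and IGHV7-1 each took at most 0.625% of IgA clonotypes in any library. As 195 V segments were listed in IgA, a share of this size does not by itself set them apart. None of the 3 that could be tested was called between the sets by edgeR (adjusted p of 0.298, 0.689 and 0.343 for IGHV11-1, IGHV11-2 and IGHV7-1). Against IgM of the same library, IGHV11-1, IGHV11-2 and IGHV7-1 were lower in IgA, with log2 fold changes of -1.31, -1.81 and -0.64 and edgeR adjusted p of 0.0174, 0.000611 and 0.00636. IGHV12-3 was not called against IgM (log2 fold change 0.048, edgeR adjusted p = 0.953). Against IgG, IGHV11-1, IGHV11-2 and IGHV7-1 had 0.26, 0.19 and -0.14, with edgeR adjusted p of 0.782, 0.782 and 0.763. Within the titled CT-26 set, IGHV11-1 had 1, 0, 42 and 15 IgA clonotypes in libraries 1 to 4, and 1, 0, 10 and 2 in titled control 1 to 4.

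J usage, the joining segment at the end of the CDR3, was not called for any of the 4 J segments. IGHJ1 took 12.3% ± 6.85 and 11.6% ± 1.72 of IgA clonotypes in titled CT-26 and titled control libraries, IGHJ2 34.5% ± 4.96 and 34.2% ± 1.34, IGHJ3 28.7% ± 4.54 and 22.5% ± 0.456, and IGHJ4 24.5% ± 5.93 and 31.7% ± 3.12 (SD, n = 4 each). For IGHJ3 and IGHJ4 the exact permutation test gave an adjusted p of 0.171, and for IGHJ1 and IGHJ2 it gave 0.943. The titled CT-26 libraries varied more among themselves. IGHJ1 took 22.0% in titled CT-26 2, against 6.53%, 12.1% and 8.52% in titled CT-26 1, 3 and 4.

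IgA CDR3 were shorter in titled CT-26 libraries. The mean over clonotypes was 13.64, 13.63, 13.54 and 13.34 amino acids in titled CT-26 1 to 4 and 13.82, 13.90, 13.66 and 13.85 in titled control 1 to 4. The sets lay apart by a narrow gap between titled CT-26 1 and titled control 3. The means were 13.54 ± 0.14 and 13.81 ± 0.10 amino acids (SD, n = 4 each), a difference of -0.27 (exact permutation p = 0.0286, adjusted p = 0.0367). In the same exact permutation test this call was lost without any 1 titled CT-26 library or without titled control 2, with differences of -0.31, -0.30, -0.27, -0.20 and -0.24 without titled CT-26 1, 2, 3 and 4 and titled control 2 and adjusted p between 0.0643 and 0.0735. CDR3 of 11 amino acids, the length of the leading titled CT-26 4 clone, made up 10.7%, 10.3%, 11.7% and 21.4% of IgA clonotypes in titled CT-26 1 to 4, against 5.54%, 5.52%, 6.24% and 5.55% in titled control 1 to 4.

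Neither class comparison of length passed. IgA CDR3 exceeded IgM CDR3 by a mean of 0.22 amino acids, in 6 of 8 libraries (exact sign-flip permutation p = 0.133, adjusted p = 0.177), and differed from IgG CDR3 by a mean of -0.06 (p = 0.742, which is also its adjusted value, by the same exact permutation test). The direction against IgG split by set. IgA CDR3 were shorter than IgG CDR3 in all 4 titled CT-26 libraries, by a mean of -0.40 amino acids, and longer in all 4 titled control libraries, by a mean of 0.27. That split was not tested.

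**Figure D5:**
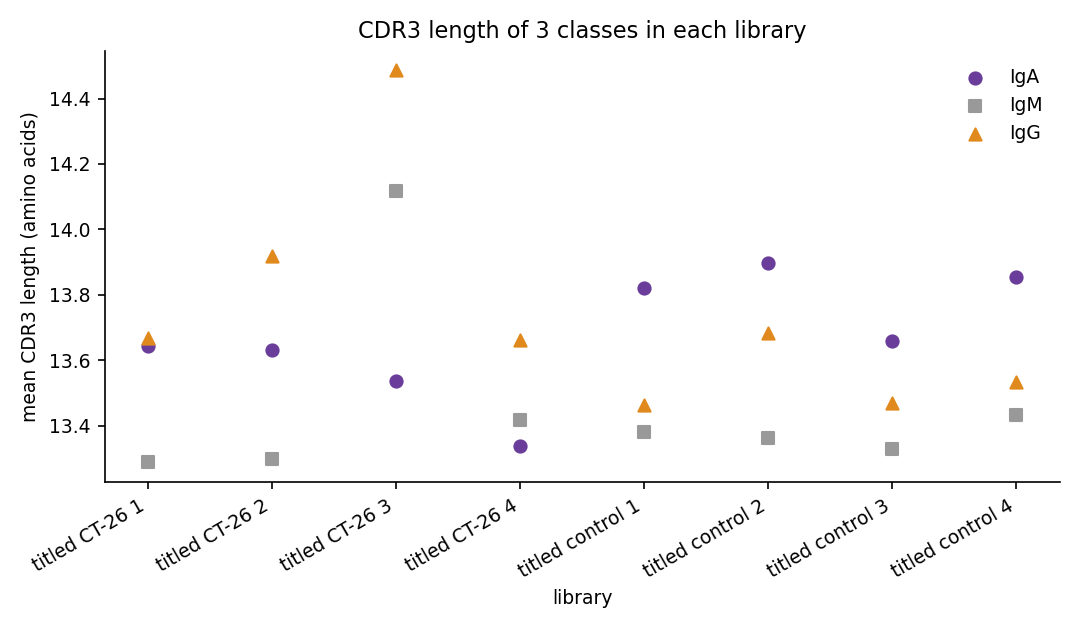
Points give the mean CDR3 length in amino acids over the clonotypes of IgA, IgM and IgG in each library, on an axis that does not start at 0. IgA lies below IgG in the 4 titled CT-26 libraries and above it in the 4 titled control libraries, and IgM and IgG of titled CT-26 3 lie at 14.12 and 14.49.

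Some large IgA clones were close relatives in sequence. The groups described here were chosen after the values were seen and are not tested. The leading titled control CDR3nt belonged to a group of 27 bases that differ in 1 codon, shown in capitals.
tgtgcaagacaggggCTGgactactgg
tgtgcaagacaggggTTTgactactgg
tgtgcaagacaggggCCTgactactgg
tgtgcaagacaggggCTTgactactgg
The group took 0%, 0.110%, 4.56% and 0.367% of IgA reads in titled CT-26 1 to 4 and 5.42%, 4.06%, 2.92% and 6.70% in titled control 1 to 4, and at most 0.117% of IgM reads in any library. Titled control libraries held the form with CTG, at 645 to 2013 reads, and at most 3 reads of the form with CTT. In titled CT-26 3 the forms with TTT, CCT and CTT had 986, 385 and 337 reads, and the form with CTG had 3. The form with CTT also had 40 reads in titled CT-26 2 and 1 in titled CT-26 4. The forms with CTG and CTT encode the same amino acids. A CDR3 protein sequence that led the titled control libraries was thus also present in titled CT-26 3, and at fewer reads in titled CT-26 2 and 4, from another nucleotide sequence.

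A motif recurred among the large clones of 3 titled CT-26 libraries. It reads TACTANGGCCC on the coding strand, where N is any base, and it is in capitals below.
titled CT-26 1: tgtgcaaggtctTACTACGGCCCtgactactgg
titled CT-26 2: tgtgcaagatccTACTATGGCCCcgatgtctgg
titled CT-26 2: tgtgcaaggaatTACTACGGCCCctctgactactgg
titled CT-26 4: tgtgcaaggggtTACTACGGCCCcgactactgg
titled CT-26 4: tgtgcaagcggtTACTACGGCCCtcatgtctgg
CDR3nt with this motif took 3.82%, 22.6%, 0.0604% and 25.5% of IgA reads in titled CT-26 1 to 4, against 0.161%, 0.0756%, 0.130% and 0.0561% in titled control 1 to 4. In IgM they took 0.303%, 0.644%, 0.175% and 0.673% in titled CT-26 1 to 4 and 0.190% to 0.229% in titled control libraries. The motif was also more frequent in IgG of titled CT-26 libraries, at 0.680%, 3.58%, 0.170% and 0.686% of IgG reads in titled CT-26 1 to 4, against 0.0155% to 0.0617% in titled control libraries. With V calls joined, the 5 CDR3nt shown had 644, 3454, 2496, 7289 and 634 reads in the order of the lines. Apart from the one of 3454 reads, whose most-read call was IGHV5-6-3 with IGHJ1, they were most often called as IGHV4-1. In IgA, titled CT-26 3 thus differed from the rest of its set, at a level like that of the titled control libraries.

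Large clones also came with partners that differ at 1 base. Of IgA CDR3nt with at least 100 reads once V calls were joined, 13 of 49, 18 of 51, 21 of 52 and 16 of 62 had a partner of that size in titled CT-26 1 to 4, against 4 of 28, 4 of 35, 0 of 21 and 8 of 36 in titled control 1 to 4. Positions are counted from 1 at the 5′ end, the base of the larger clone is given first, and the changed base is in capitals.
titled CT-26 3, larger: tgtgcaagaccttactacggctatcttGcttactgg
titled CT-26 3, partner: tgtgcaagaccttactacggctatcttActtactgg
titled control 2, larger: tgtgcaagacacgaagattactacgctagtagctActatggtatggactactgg
titled control 2, partner: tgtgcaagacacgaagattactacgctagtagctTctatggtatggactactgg
The titled CT-26 3 pair differs by G28A, with 2161 and 405 reads. The titled control pair differs by A35T, with 984 and 156 reads in titled control 2, and all 4 titled control libraries held both forms. How such pairs arose was not tested.

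IgA clones had IgM and IgG relatives in the same library. With each class thinned to 9224 reads, 16.9%, 16.7%, 16.8% and 17.96% of IgA CDR3nt were also listed under IgM in titled CT-26 1 to 4, against 14.6%, 13.6%, 12.7% and 13.2% in titled control 1 to 4. The sets did not overlap (17.1% ± 0.589 against 13.5% ± 0.775, SD, n = 4 each, exact permutation p = 0.0286, adjusted p = 0.0367). For IgG the shares were 12.3%, 13.5%, 12.5% and 12.7% in titled CT-26 1 to 4, against 9.87%, 9.31%, 10.3% and 9.90% in titled control 1 to 4, also without overlap (12.8% ± 0.533 against 9.84% ± 0.395, SD, n = 4 each, exact permutation p = 0.0286, adjusted p = 0.0367). Both calls held without any 1 library and were lost with the titled control libraries averaged. Without thinning, IgM shares were 33.6%, 30.8%, 30.7% and 30.5% in titled CT-26 1 to 4, against 36.5%, 33.9%, 32.2% and 32.9% in titled control 1 to 4. The direction of the IgM difference thus depended on thinning, as titled CT-26 2, 3 and 4 then lay below every titled control library. Unthinned IgG shares were 16.9% to 21.0% and 7.32% to 8.57%, where titled CT-26 libraries also held more IgG reads.

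Most of this sharing stayed within a library in the titled CT-26 set. IgA CDR3nt of a titled CT-26 library were found in the IgM of another titled CT-26 library at 0.924% to 2.14%, and those of a titled control library in the IgM of another titled control library at 8.83% to 10.7%. For IgG these ranges were 0.449% to 1.33% and 6.71% to 8.18%.

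The large IgA clones were listed under IgM as well, in most cases at lower read numbers. Of IgA CDR3nt with at least 100 reads, 49 of 49, 50 of 51, 53 of 53 and 63 of 63 were also listed under IgM in titled CT-26 1 to 4, and all 28, 35, 21 and 36 in titled control 1 to 4. These CDR3nt were chosen by their IgA reads, with no condition on IgM or IgG, so low read numbers in the other classes partly follow from that choice. The median number of IgM reads per 100 IgA reads of such a CDR3nt was 7.51, 5.87, 7.34 and 5.22 in titled CT-26 1 to 4 and 7.14, 7.55, 6.82 and 6.64 in titled control 1 to 4. For IgG the median was 4.11, 2.90, 2.73 and 4.26 in titled CT-26 1 to 4, against 0.971, 1.34, 1.57 and 1.25 in titled control 1 to 4, beside the higher IgG share of titled CT-26 libraries given above. The leading titled CT-26 4 CDR3nt had 7291 IgA, 513 IgM and 465 IgG reads, and the leading titled control CDR3nt had 2013 IgA, 176 IgM and 30 IgG reads in titled control 4.

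In the RNA libraries, the IgA constant region gene Igha (ENSMUSG00000095079.7, chromosome 12, 113218450 to 113223856 on the minus strand, GRCm39) was lower in titled CT-26 spleens. It had 43 to 80 counts in titled CT-26 libraries and 81 to 213 counts in titled control libraries. As CPM, the count divided by the TMM-scaled library total, titled CT-26 1 to 4 and then titled control 1 to 4 had 70.7, 52.3, 38.4 and 68.1 CPM, against 105, 58.7, 112 and 128 CPM. The sets overlapped through titled control 2, which was below titled CT-26 1 and 4. The means were 57.4 ± 15.04 and 101 ± 29.7 CPM (SD, n = 4 each; log2 fold change -0.82 ± 0.25 SE, edgeR adjusted p = 0.0089). Of 6408 genes tested, 1359 were higher, or 21.2%, and 1381 were lower, or 21.6%. Without TMM, which moves all genes up by a median of 0.37, Igha had a log2 fold change of -0.42 and an edgeR adjusted p of 0.240. Its adjusted p was 0.0506 without titled CT-26 3 and 0.104 with the titled control libraries averaged. In bulk RNA, fewer IgA cells and less Igha RNA per cell cannot be told apart, and the BCR share of IgA is relative to the other classes while Igha CPM is relative to all spleen RNA.

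Of 25 genes linked to switching to IgA, to IgA secretion and to homing of IgA cells, 11 were expressed highly enough to be tested. Of these, 0 were called higher (0 also at an unadjusted edgeR p under 0.05 and by DESeq2) and 5 were called lower. The median log2 fold change of the 11 was -0.62, against -0.02 over all genes tested. Both genes with the largest decreases act in homing to gut. Ccr9, the receptor for the small intestinal chemokine CCL25, had 5.31, 4.42, 1.79 and 0 CPM in titled CT-26 1 to 4, against 34.2, 42.8, 50.5 and 39.1 CPM in titled control 1 to 4 (log2 fold change -3.71 ± 0.41 SE, edgeR adjusted p = 2.5e-08). Itgb7, the beta 7 integrin chain, averaged 6.501 ± 2.40 and 27.1 ± 10.5 CPM (-2.11, edgeR adjusted p = 5.1e-05). Neither gene's sets overlapped. Its partner chain gene Itga4 averaged 199.6 ± 35.9 and 200.01 ± 39.0 CPM in titled CT-26 and titled control libraries (SD, n = 4 each; log2 fold change -0.0041, edgeR adjusted p = 0.989; named after its value was seen).

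The other genes called lower were Tnfrsf13b, which encodes the receptor TACI for the B cell factors BAFF and APRIL, Smad4, a mediator of transforming growth factor beta signals, and Jchain, which joins IgA and IgM into polymers. Tnfrsf13b averaged 30.3 ± 8.20 and 77.6 ± 30.7 CPM in titled CT-26 and titled control libraries (log2 fold change -1.36, edgeR adjusted p = 0.000252). Smad4 averaged 20.7 ± 2.63 and 35.6 ± 7.19 CPM (-0.80, adjusted p = 0.0168), and Jchain 475 ± 69.9 and 691 ± 120 CPM (-0.54, adjusted p = 0.0368), in the same edgeR fit (SD, n = 4 each). Smad3, which also mediates these signals, had 6.18 ± 2.82 and 12.3 ± 0.778 CPM and was not called (-0.93, edgeR adjusted p = 0.0647). Without TMM, Ccr9, Itgb7 and Tnfrsf13b were still called, and Smad4 and Jchain were not (edgeR adjusted p of 0.305 and 0.671).

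These genes are not specific to IgA cells, and markers of cell types moved with the sets. The summed level of 4 B cell markers was 163 to 312 CPM in titled CT-26 libraries and 998 to 1442 CPM in titled control libraries, with 4 of 4 called lower by edgeR. That of 3 T cell markers was 164 to 369 and 809 to 1489 CPM, with 3 of 3 called lower, and that of 3 red pulp macrophage markers was 567 to 713 and 694 to 856 CPM, with 2 called lower. These 2 were Spic, with means of 8.72 and 85.9 CPM (log2 fold change -3.31), and Slc40a1, with 36.1 and 232 CPM (-2.67). Most of that sum was Vcam1, which went the other way without a call, at 593 and 452 CPM (0.39, edgeR adjusted p = 0.129). The 4 plasma cell markers summed to 432 to 616 and 640 to 892 CPM, with 1 called lower, which was Jchain. Of these 4, Mzb1 was at 0 in all 8 libraries. The 6 markers of gut epithelium and exocrine pancreas summed to 8.41 to 586 and 34.5 to 548 CPM, with 1 called lower by edgeR, Cela1 (log2 fold change -2.06, adjusted p = 0.00289). Of these, Ctrb1 had 0.884 to 578 and 22.4 to 488 CPM, and the epithelial marker Krt19 was at 0 in all 8. The part of these differences in the levels of Igha and of the genes above was not tested.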

How the data were processed

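Each deposited BCR table lists assembled receptor entries with the count of reads behind them, the V, D, J and constant region call and the CDR3 in nucleotides and amino acids. Their assembly program was not given in the sources used here. Fractions computed by the authors were left aside. The RNA tables were deposited as counts of fragments per gene, summed with featureCounts 2.0.1 over GENCODE M29, strand ignored, per the file headers. Trimmomatic 0.39 and STAR 2.7.10a are named in the submitters' processing notes, which list both GRCm39 and GRCm38. Per the labels, RNA was taken up with a Takara MiniBEST kit, and the library kit named is SMARTer mouse TCR a/b. T cell receptor libraries were not used. Of 55414 genes, 52081 had a symbol. RNA libraries held 735298 to 1152550 counts (titled CT-26) and 907109 to 1970950 counts (titled control), BCR libraries 162551 to 291615 productive heavy chain reads, of which 1.63% to 2.12% had no constant region call.

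Clonotypes were joined by CDR3nt, V and J within a class. Values at equal depth are means of 20 random draws at 22321 IgA reads, or at 9224 reads where 3 classes were compared. Single values were tested by exact permutation over libraries, two-sided, with Benjamini-Hochberg adjustment over 9 values, 4 J segments or 4 comparisons within libraries. Clonotype numbers per V segment went into edgeR's quasi-likelihood test (robust, no TMM) and RNA counts into the same test with filterByExpr and TMM, at an adjusted p of 0.05. CPM were computed from the deposited counts, over TMM-scaled totals for genes tested and over plain totals for the others. The summed levels of plasma cell markers and of gut and pancreas markers thus mix both scales. Both models were tested on simulated data. A replicate block, DESeq2, other filters, scalings and clonotype definitions, the sequencing lane in the RNA file names and each library left out were tried as alternatives. Members, lists and tests were chosen with earlier results of these data known. Named were the 10 most used V segments, up to 10 of smallest adjusted p per comparison, 4 segments of B-1 cells, the largest clonotype of each library, CDR3nt in the most libraries, Igha and up to 6 listed genes of smallest p. Clones confined to a set, families, sequence groups and Itga4 were named after their values were seen. Software was edgeR 4.0.16 and DESeq2 1.42.0 in R 4.3.3, and matplotlib 3.10.9, scipy 1.17.1, numpy 2.4.6 and pandas 2.3.3 in Python 3.11.15.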

Additional observations from a re-analysis of the deposited data

Results flagged for a closer look

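Among 90 groups of 4 libraries tested, 7 had a library far from the other 3 relative to the group's range, where chance flags about 1 in 20. Titled control 3 had an IgA clonality of 0.140 and 10.03% of IgA reads in its 10 largest clonotypes, both below the other titled control libraries. Its share of IGHV11-1 among IgA clonotypes, 0.128%, was above theirs. Titled CT-26 4 shared 17.96% of IgA CDR3nt with IgM, above its set, and had 0.0% of IgA clonotypes under IGHV1S135, below its set. The mean IgM CDR3 length of titled CT-26 3 was 14.12 amino acids, above its set. Itgb7 had 2.95 CPM in the RNA library of titled CT-26 2, below its set.

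In 3 comparisons of classes within libraries the direction differed between the sets in every library, and these differences were not tested. IGHV1S135 took fewer clonotypes in IgA than in IgM in titled CT-26 libraries (mean difference -0.0163 percentage points) and more in titled control libraries (0.237). IGHV1S41 did likewise, with -0.0245 and 0.256 percentage points. Mean CDR3 length of IgA minus IgG was -0.397 amino acids in titled CT-26 libraries and 0.272 in titled control libraries.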

How the results depend on the processing

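After the mean of each set was taken off, same-numbered libraries correlated at r = -0.186, 0.284, -0.162 and -0.0154 in V usage and at 0.0796, -0.0802, -0.0484 and 0.0118 in RNA. These values cannot show whether the libraries were paired, as differently numbered libraries were not compared. With a replicate block the smallest p of an exact test is 0.125, so no single value could pass, and the differences were -1706 clonotypes, 0.0748 in clonality, 10.2 points for the 10 largest clonotypes, -0.27 amino acids in CDR3 length, and 3.58 and 2.93 points of sharing with IgM and IgG. The block left 7 V segments lower between the sets. These 6 differences were the same with the titled control libraries averaged into 1 sample, where p could not fall below 0.2, and clonality of IgA minus IgM was then 0.0862. With averaging, 1 V segment was lower between the sets, 16 were higher and 9 lower against IgM, and 0 and 0 against IgG. Igha then had a log2 fold change of -0.82, and 3 listed RNA genes were lower. Without clonotypes of 1 read, the clonotype difference was -91.05, the IGHJ1 difference -0.24 points, 3 segments were higher between the sets and 20 against IgM. The IGHJ2 difference was -0.061 points with amino acid sequences, and IgA's share of clonotypes rather than reads differed by 1.103 points.

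Between the sets TMM gave 6 higher and 4 lower, DESeq2 10 and 4, joining CDR3nt at 1 mismatch 3 and 8, and no filter 2 higher. Against IgG 1 segment was higher under TMM, DESeq2 and the most-read V call each, and 2 with joining. Igha had -0.42 without TMM. Listed RNA genes called lower were 3 without TMM or with the lane as a factor, and 1 was higher without a filter.

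Leaving out 1 library in turn gave 8 to 18 segments lower between the sets (13 without titled CT-26 1, 10 without titled CT-26 3, 9, 8 and 8 without titled control 1, 3 and 4) and 1 to 3 higher (2 without titled CT-26 2, 3 without titled CT-26 4). Against IgM, 14 to 24 were lower (14 without titled control 3). Against IgG, 1 to 15 were higher (15 without titled CT-26 3, 3 without titled CT-26 2, 1 without titled CT-26 1 or any titled control library). Ranges were -0.32 to -0.20 amino acids for CDR3 length, -0.12 to 0.065 for length against IgG (positive without titled CT-26 3), 8.33 to 11.7 points for the 10 largest clonotypes, 0.0643 to 0.0779 for clonality against IgM, -0.65 to 0.62 points for the IgA share, -2.49 to 2.65 for IGHJ1, -1.76 to 2.16 for IGHJ2 and -1.02 to -0.64 for Igha.

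Named segments that changed sign had small log2 fold changes and, unless given in the report, no call. Between the sets IGHV5-12-1 had 0.73 under TMM, 0.86 under DESeq2, 0.079 without clonotypes of 1 read, 0.10 with joining and -0.30 to 0.13 with 1 library left out. IGHV5-4 had 0.45, 0.55 and 0.084 under TMM, DESeq2 and without clonotypes of 1 read. IGHV5-9-3 had 0.48 and 0.60, and IGHV7-1 0.26 and 0.38, under TMM and DESeq2, and IGHV11-2 had 0.0097 under DESeq2. Against IgM, IGHV12-3 had -0.23 under TMM, -0.21 under DESeq2, -0.048 with the most-read V call, -0.22 with averaging and -0.23 to 0.19 with 1 library left out. IGHV5-6-5 had -0.067 and -0.0090 under TMM and DESeq2, IGHV5-9-3 -0.13 with joining and IGHV5-4 0.021 with the most-read V call. Against IgG, IGHV5-17 had -0.019 and -0.041 and IGHV11-2 -0.086 and -0.058 under TMM and DESeq2, IGHV7-1 0.22 without clonotypes of 1 read and 0.059 with the most-read V call, and with 1 library left out IGHV5-4 had -0.17 to 0.084 and IGHV11-1 -0.27 to 0.79. The causes were not tested. Depth limits segments of few clonotypes and the RNA level of low genes most.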
